A study of Drosophila melanogaster x Drosophila simulans and Drosophila melanogaster and Drosophila simulans with 186 samples.

Results

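The mid abdomen is the stretch of the blastoderm embryo that lies above 62.5% and at most 75% of the length from the anterior end. It was compared with all other slices of the same embryo in 5 hybrids of *Drosophila melanogaster* and *Drosophila simulans*. A slice belongs to it when its centre, as a share of the slice count of its embryo, falls inside those bounds, so no expression value was used to choose it. This gave 16 of the 132 hybrid slices and of the 186 slices in the series. There were 3 such slices in melXsim replicates 1 and 3 and in simXmel replicates 1 and 2, and 4 in melXsim replicate 2.

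The hybrids were crosses of the DGRP line 340 of *D. melanogaster* with the w501 strain of *D. simulans*. The 3 melXsim embryos came from *D. melanogaster* mothers and the 2 simXmel embryos from *D. simulans* mothers. A single embryo of either strain crossed to itself (melXmel and simXsim) was sliced as well. All were whole embryos in the middle of stage 5, with no treatment named, cut into sections of 14 µm, each of which became its own RNA-seq library. A section holds every cell type around the circumference at that position, so that a smaller number of expressing cells and less RNA per cell cannot be told apart.

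At this stage the embryo is a single layer of cells, and its anterior-posterior axis is read out by a cascade of transcription factors. Broad maternal gradients set the domains of the gap genes, which repress each other and so share out the trunk. The gap genes position the stripes of the pair-rule genes and the limits of the Hox genes, which give segments their identity. In *D. melanogaster* the region studied here lies where the posterior stripe of *knirps* (*kni*), a nuclear receptor-like repressor, meets that of *giant* (*gt*), a leucine zipper repressor.

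Expression is given as FPKM, a fragment number scaled by transcript length and by the mapped fragments of the library. Of the 16 slices, 14 have FPKM in the joint table and all 16 have allele-specific expression (ASE). ASE is the difference between *D. simulans* and *D. melanogaster* reads divided by their sum, so that -1 is all *D. melanogaster* and +1 all *D. simulans*. The allele counts of a mid abdomen slice, over the 3005 genes whose counts could be used, totalled 741150 to 2057142, and those of the 116 other slices 17 to 3758730. None of the 104 other slices with FPKM was below 403807. Values were averaged within each part of an embryo, and the embryo was the replicate (n = 5).

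The markers of the region, *kni* and *gt*, were both present in it. *kni* (chr3L:20685430-20688478, release 5 of the *D. melanogaster* genome) was at 226 and 158 FPKM in the mid abdomen slices of melXsim replicate 1. It was at 156, 113, 47.4 and 8.79 FPKM from front to back in replicate 2, and at 329, 488 and 178 FPKM in replicate 3. In simXmel it was at 168 and 88.0 FPKM in replicate 1 and at 109, 96.6 and 48.3 FPKM in replicate 2. Among the slices measured, *kni* was thus lowest in the last one in every hybrid.

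*gt* (chrX:2321146-2323000) was low at the front of the region instead. It was at 7.72 and 115 FPKM in melXsim replicate 1, at 4.09, 63.5, 172 and 153 FPKM in replicate 2, and at 0.68, 16.2 and 215 FPKM in replicate 3. The simXmel embryos gave 77.6 and 209 FPKM, and 7.21, 107 and 204 FPKM. Its lowest value stood in the first slice measured in all 5 embryos. Behind the middle of the embryo, the slice with most *kni* lay inside the region in 4 of 5 hybrids and at 61.1% of the length in simXmel replicate 2. The slice with most *gt* lay inside it in 3 hybrids, and at 75.9% and 79.6% in melXsim replicates 1 and 3. The same share of the length therefore cut the 2 stripes at different points in different embryos.

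Against the whole rest of the embryo neither marker passed the test. The mean of *kni* was 164 FPKM in the mid abdomen and 79.3 FPKM in the rest, a difference of 0.86 ± 0.99 (SD, n = 5) in log2(FPKM + 1). It was higher in 5 of 5 embryos (limma, adjusted p = 0.10; exact sign-flip permutation test, two-sided p = 0.0625, the smallest that 5 embryos allow). The mean of *gt* was 97.3 FPKM against 143 FPKM, a difference of -0.51 ± 0.81, with 3 embryos lower and 2 higher (limma, adjusted p = 0.25; exact p = 0.375). Without melXsim replicate 3 the differences were 0.46 and -0.22, and without any 1 embryo they ran from 0.46 to 1.02 for *kni* and from -0.72 to -0.22 for *gt*, none of which passed. They depended on how slices were averaged: with the mean of log2 values over slices in place of the mean FPKM, *kni* was higher by 3.04 and passed (adjusted p = 7.8e-05), and *gt* turned to 0.44 (adjusted p = 0.60). Both genes have a second domain in the front of the embryo. The highest slice there held 412 to 606 FPKM of *kni* and 275 to 721 FPKM of *gt*.

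When the rest was limited to slices behind 50% of the length, an alternative chosen after the values were seen, *kni* was higher by 2.64 ± 0.93 (limma, adjusted p = 1.8e-04). The corresponding value of *gt* was 1.16 ± 1.5 (adjusted p = 0.17). With slices of only 1 library batch per embryo, the difference from the whole rest was 0.54 for *kni* and -0.90 for *gt*, and neither passed.

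**Figure D1:**
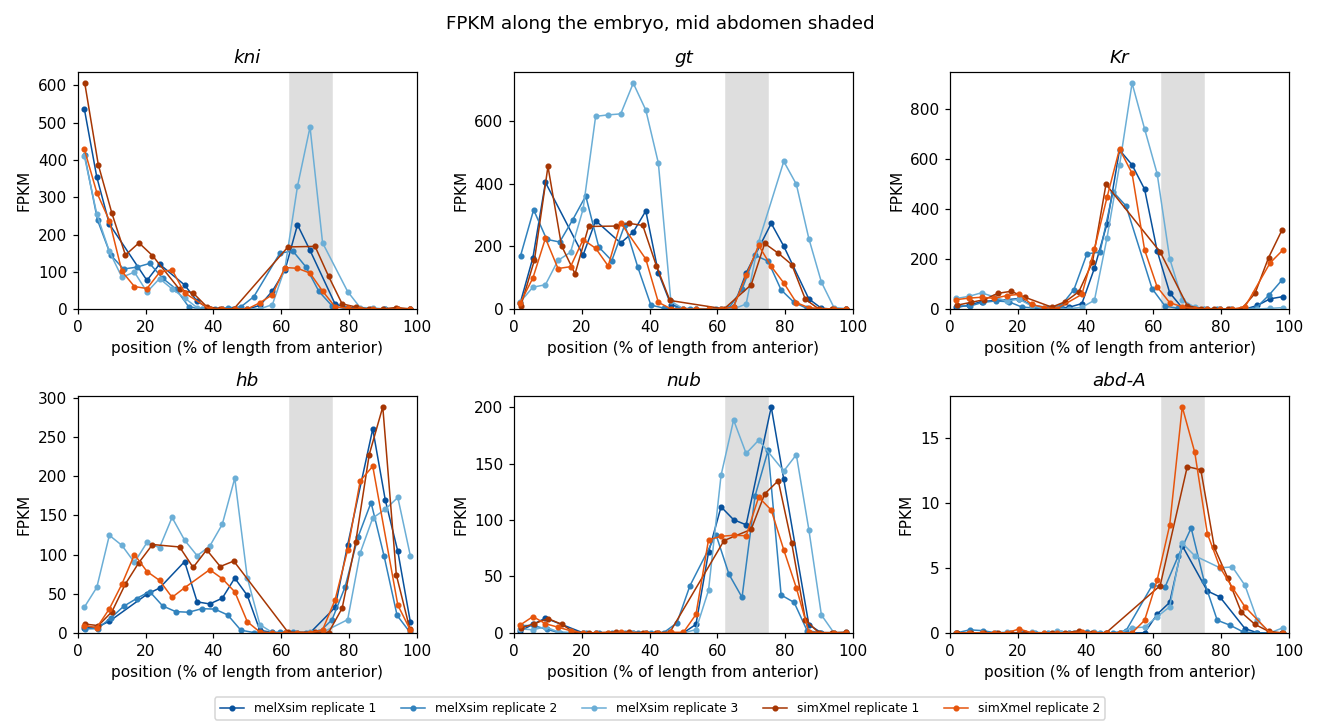
FPKM of 6 genes by position along the embryo, in percent of the length from the anterior end, with 1 line per hybrid embryo, 1 point per slice with a value, and the mid abdomen shaded. In the shaded band the last slice measured holds less *kni* and more *gt* than the first in every hybrid, though *kni* peaks at 488 FPKM in the middle slice of melXsim replicate 3 and *gt* at 172 FPKM in the third of melXsim replicate 2, while *hb* stays between 0 and 16.6 FPKM.

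Over all genes, 116 of 6722 were higher in the mid abdomen than in the rest (1.73% of those tested) and 326 were lower (4.85%), by limma on the differences within embryos at an adjusted p below 0.05. The median difference of all genes tested was -0.05. Of the genes called higher, 108 were higher in 5 of 5 embryos, and of those called lower, 316 were lower in all. With the mean of log2 values over slices, 187 genes were higher and 226 lower, so that the excess of lower calls depends on the averaging. In the fit reported 135 genes fell by 1 or more on the log2 scale and 21 rose by as much. With slices of 1 library batch per embryo, 93 genes were higher and 279 lower, and without melXsim replicate 2 the counts were 74 and 196. The fit lets the variance follow the mean log2 level of a gene, a choice made after a first fit in which it followed the difference itself. With the latter, 98 genes were higher and 206 lower, and with no such trend 83 and 286.

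The axis was also cut into windows of 12.5% of the length to see where the called genes were highest. Of the 116 genes called higher, 64 had their highest mean in the mid abdomen itself, 16 in the window before it and 10 in the window after it. Of the 326 genes called lower, 163 were highest in the first window and 64 in the last. Of all 6722 genes tested, 1650 were highest in the first window, 1929 in the last and 565 in the mid abdomen. The calls were made on the same values, which favours a highest mean inside the region for higher calls and outside it for lower ones. These counts are a description only.

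The parental embryos were not part of the fit. Of the 116 genes called higher in hybrids, 106 were higher in the mid abdomen of the melXmel embryo and 95 in that of simXsim, against 51.1% and 43.8% of all genes tested. Of the 326 called lower, 301 and 297 were lower, against 48.8% and 56.0% of all genes. With 1 embryo per strain there was no test.

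The gene with the largest difference was *CG31275*, at chr3R:12576463-12577056. Its mean FPKM in the mid abdomen was 13.9, 38.6 and 23.9 in melXsim replicates 1 to 3, and 14.8 and 8.32 in simXmel replicates 1 and 2. In the rest its mean was between 0.65 and 2.51 FPKM, so the means of the parts did not overlap. The window after, a part of the rest, was at 13.5 FPKM in melXsim replicate 3, above the mid abdomen of simXmel replicate 2. *CG31275* was higher in the mid abdomen than in the rest by 2.92 ± 0.66 (limma, adjusted p = 4.9e-06). With the variance following the difference, the adjusted p was 0.45 for *CG31275*, 0.086 for *nub* and 0.054 for *abd-A*, and the other 21 of the 24 genes named by size kept their call. In the coordinates of the files it lies between the Hox genes *Ubx* (chr3R:12482345-12560148) and *abd-A* (chr3R:12632936-12655771).

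These Hox genes were themselves among the 12 largest differences. *abd-A*, which specifies abdominal segments, was at 4.52, 5.36 and 4.94 FPKM in melXsim and at 12.7 and 13.2 FPKM in simXmel, against 0.28 to 1.07 FPKM in the rest. The 2 simXmel embryos were above the 3 melXsim embryos in level, although the difference from the rest did not pass the test between directions of the cross (adjusted p = 0.74). It rose by 2.33 ± 0.47 (adjusted p = 6.8e-06). *Ubx*, which specifies the posterior thorax and anterior abdomen, rose by 1.65 ± 0.18 (adjusted p = 7.2e-06), from 1.32 to 6.30 FPKM. Its highest mean, 10.3 FPKM, was in the window before the mid abdomen. The mid abdomen exceeded that window in 0 of 5 hybrids, though the difference did not pass (-0.54, limma, adjusted p = 0.31).

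The POU-domain factors *nub* and *pdm2*, neighbouring genes on chromosome arm 2L that are named as gap genes, also rose. *nub* was at 98.0, 91.6 and 173 FPKM in melXsim and at 107 and 97.6 FPKM in simXmel, against 10.3 to 27.8 FPKM in the rest. Its difference was 2.43 ± 0.47 (adjusted p = 1.0e-06) and that of *pdm2* 1.54 ± 0.39 (adjusted p = 1.2e-05). In the windows before and after, *nub* was at 66.2 and 79.4 FPKM, and the mid abdomen passed against neither (limma, adjusted p = 0.068 and 0.35). *pdm2* was at 73.4 FPKM in the mid abdomen and at 73.6 FPKM in the first window. It passed against the window after (adjusted p = 0.0059) but not against that before, at 66.4 FPKM (adjusted p = 0.73). *gk* had the least spread of the 12, with a difference of 2.02 ± 0.09 (adjusted p = 2.0e-09) and 122 to 360 FPKM in the mid abdomen against 27.4 to 86.1 FPKM in the rest. Against the windows before and after, at 162 and 130 FPKM, the adjusted p of *gk* (limma) was 0.058 and 0.024.

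The other genes among the 12 largest rose by 1.40 to 1.66. They were *tsg*, a secreted protein that binds BMP ligands, *ths*, an FGF ligand of the mesoderm receptor Heartless, *cas*, a zinc finger factor known from neuroblasts, *Glut4EF*, *CG1324* and *CG1673*. *tsg* went from 62.5 FPKM in the rest to 191 FPKM, and *ths* from 5.46 to 16.6 FPKM. In the window before, *tsg* was at 239 FPKM, and the mid abdomen exceeded that window in 1 of 5 hybrids. Against that window *tsg*, *ths*, *Glut4EF*, *CG1324* and *CG1673* did not pass (limma, adjusted p from 0.26 to 0.60). *cas* passed against it (limma, adjusted p = 0.0050). Against the window after, at 8.22 FPKM, *cas* at 7.78 FPKM did not (adjusted p = 0.98).

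Most of the 12 most reduced genes had their highest mean in the first or the last window, the exceptions being *ems*, *hb* and *salm*. *hkb* and *tll*, the terminal gap genes, were at 0 to 2.60 and at 0 to 0.35 FPKM in the mid abdomen of the 5 embryos, against 155 to 464 and 92.2 to 178 FPKM in the rest. Their differences in log2(FPKM + 1) were -7.26 and -6.95 (SD 0.67 and 0.48, adjusted p = 2.0e-09 and 5.1e-10). Those of the gut factors *fkh* and *byn* were -5.31 and -4.36, and those of the head factors *ems* and *croc* -4.41 and -4.36.

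*hb*, the gap gene of a broad anterior domain and a posterior stripe, fell by 5.04 ± 1.36 (adjusted p = 8.2e-06). Its mean was 0 to 1.27 FPKM in 4 hybrids and 4.61 FPKM in melXsim replicate 2, where the last slice alone held 16.6 FPKM. *rib*, a factor of tube-forming tissues, and the zinc finger factor *salm* were at -4.34 and -4.12. *ImpE2*, an ecdysone-inducible gene, was listed at 0 in the mid abdomen of every hybrid against 30.7 to 147 FPKM in the rest. *CG3502* and *CG12986* were at -6.11 and -5.05.

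**Figure D2:**
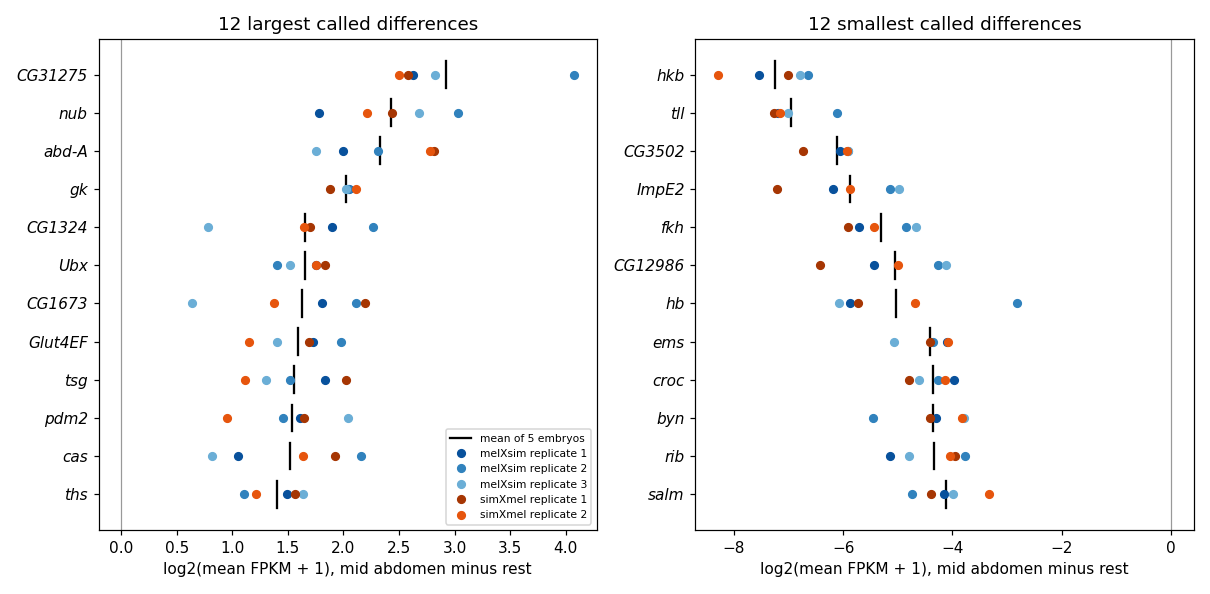
Differences in log2(mean FPKM + 1) between the mid abdomen and the rest for the 12 largest (left) and 12 smallest (right) called differences, with 1 point per hybrid embryo and a bar at their mean. All points lie on one side of 0; *CG31275* is at 4.08 in melXsim replicate 2 and at 2.50 to 2.83 in the others.

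The lists of patterning genes were read against the same background. Of the 9 gap genes, 3 were higher, 3 lower and 3 not called. Besides *nub* and *pdm2*, the Sox factor *D* rose, from 218 to 490 FPKM (1.05 ± 0.32, adjusted p = 4.1e-05). In the windows before and after, *D* was at 397 and 441 FPKM, and the mid abdomen passed against neither (limma, adjusted p = 0.17 and 0.70). *Kr*, the repressor of the central domain, fell by 2.72 ± 1.32 (adjusted p = 6.4e-04). It was at 82.3 FPKM in melXsim replicate 3 and at 4.54 to 35.3 FPKM in the other hybrids, with its highest value in the first slice of the region wherever it was measured. *knrl*, the close relative of *kni*, fell by 1.06 ± 0.15 against the whole rest (adjusted p = 1.8e-05), where it is highest in the first window. It was higher by 2.13 than the rest behind 50% of the length (adjusted p = 1.4e-05), by 2.90 than the window after (adjusted p = 1.5e-05), and by 0.80 than the whole rest with the mean of log2 values (adjusted p = 0.0013). Among the genes called in the lists described here, *run*, *slp1*, *slp2*, *Dfd*, *SoxN* and *btd* also changed sign against the rest behind 50% of the length, where none of these passed. With the mean of log2 values, *Kr*, *slp1*, *mid*, *Dfd*, *SoxN*, *brk*, *Doc2*, *twi*, *pgc*, *nos* and *gcl* lost their call as lower. Their adjusted p (limma) then ran from 0.066 to 0.86. In that fit *cad*, *h*, *prd*, *ptc*, *Antp*, *pnr*, *tld*, *htl*, *if*, *sog*, *ind* and *slam* were called higher as well.

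Of the 9 pair-rule genes, 5 rose. They were *opa* (0.89), *eve* (0.81), *ftz* (0.78), *run* (0.47) and *odd* (0.41), whose adjusted p ran from 8.5e-06 to 0.031. *eve*, for example, was at 216 to 295 FPKM in the mid abdomen of the 5 hybrids against 106 to 177 FPKM in the rest. None of the 5 genes had its highest mean in the mid abdomen. It lay in the window after for *eve*, *ftz* and *run*, and farther forward for *opa* and *odd*. Against the rest behind the middle of the embryo, *opa* (0.75) and *odd* (0.54) passed (limma, adjusted p = 6.5e-04 and 0.011). *eve* (0.26), *ftz* (0.16) and *run* (-0.08) did not (adjusted p = 0.11, 0.42 and 0.68). *slp1* and *slp2*, forkhead factors with a broad head domain, fell, with values of -1.81 and -1.92. *h* (0.29, adjusted p = 0.24) and *prd* (0.41, adjusted p = 0.35) did not pass. With the mean of log2 values over slices both passed, at 0.80 (limma, adjusted p = 0.0038) and 1.55 (adjusted p = 0.0017). The list's median was 0.41, against -0.05 for all genes.

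The Hox and segment polarity lists were only partly expressed, with 4 of 8 and 7 of 11 genes above the filter. Of the Hox genes *Dfd*, which acts in the head, fell by 1.63 ± 0.66 (adjusted p = 5.8e-04). *Antp*, which acts in the thorax, was at 0.50 ± 0.43 (adjusted p = 0.098). Of the segment polarity genes *wg* (-2.95), *hh* (-1.28) and *mid* (-0.75) fell and none rose. Both *wg* and *hh* had their highest mean in the first window of the embryo. Of the 5 Toll receptor and leucine-rich repeat genes tested, *18w* (-1.30) and *Tollo* (-1.44) fell and none rose.

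Genes of the dorsal-ventral axis showed both directions. Of the 16 genes of the dorsal ectoderm and amnioserosa, 7 rose and 2 fell. *zen*, which specifies the amnioserosa, rose from 43.7 to 109 FPKM (1.23 ± 0.28, adjusted p = 8.6e-06), and its neighbour *zen2* by 1.15. The BMP-binding protein *cv-2* (0.92), *ush* (0.74), *Ance* (0.73), *srw* (0.66) and the protease *rho* (0.57) also rose. Against the window before, none of these passed (limma, adjusted p from 0.39 to 0.97), nor did *zen* (adjusted p = 0.10). *srw* was at 78.9 FPKM in that window and at 67.1 FPKM in the mid abdomen. The T-box genes *Doc2* (-0.94) and *Doc3* (-1.09) fell. Of the 10 ventral neuroectoderm genes tested, the FGF ligands *ths* and *pyr* rose, by 1.40 and 1.13, and *SoxN* (-0.89) and *brk* (-0.33) fell. *ths* and *pyr* did not pass against the window before (limma, adjusted p = 0.60 and 0.93). Of 7 mesoderm genes only *twi* passed the test, and it fell by 0.33 ± 0.15 (adjusted p = 0.0067). Its mean was 519 FPKM in the first window and 167 to 214 FPKM in all others, with 183 FPKM in the mid abdomen. Against the rest behind the middle of the embryo, *twi* did not pass (-0.017, limma, adjusted p = 0.90).

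Markers of the head and the tail were low. All 6 posterior terminal and gut markers and 5 of 6 head markers were called lower, against 4.85% of all genes tested. Their summed level in the mid abdomen was 1.94 to 8.40 and 2.47 to 4.99 FPKM per embryo, against 332 to 769 and 76.7 to 140 FPKM in the rest. Markers below 1 FPKM in the mid abdomen, such as *tll* (0.10), *fkh* (0.24), *oc* (0.052) and *ems* (0.26), passed the filter of 1 FPKM only through the rest. For those a lower call was largely fixed by the filter. Of 8 pole cell and germ plasm genes, *pgc* (-2.99), *nos* (-2.01), *gcl* (-0.51) and *CycB* (-0.50) fell and 4 were not called, among them *aub* at 28.4 against 27.2 FPKM. Their summed level was 175 to 289 FPKM against 314 to 403 FPKM in the rest. Most of that sum was *CycB*, at 167 against 232 FPKM. *pgc* was at 3.38 against 34.8 FPKM and *nos* at 0.29 against 5.59 FPKM. Of 7 cellularization genes, *Bsg25D* rose by 0.49 and *bnk* fell by 0.61. The 5 others, among them *slam* and *halo*, were between -0.44 and 0.17.

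**Figure D3:**
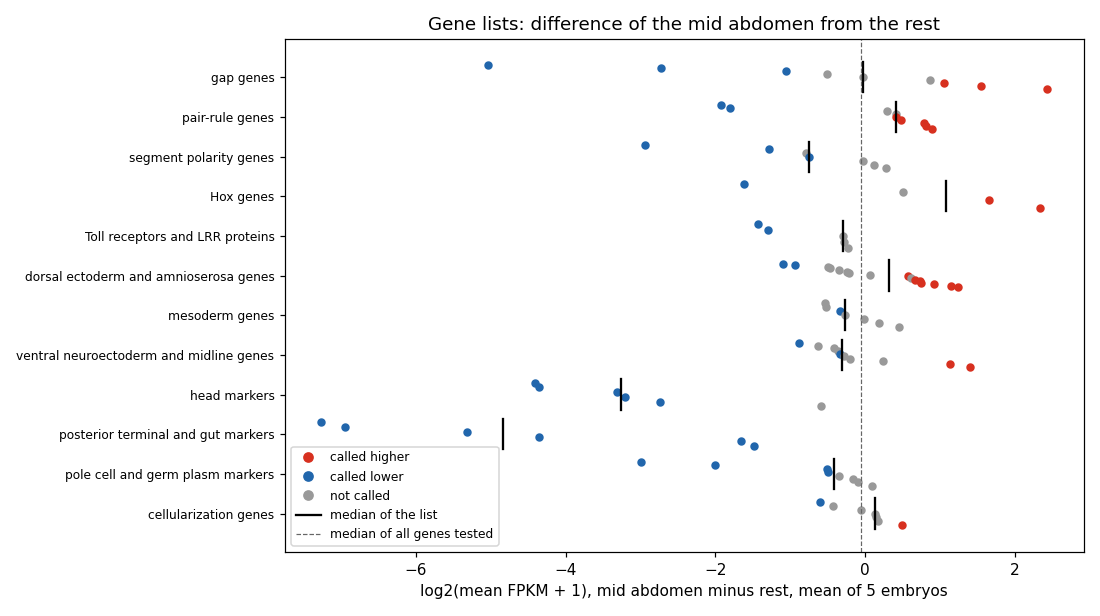
Differences in log2(mean FPKM + 1) between the mid abdomen and the rest, averaged over 5 hybrids, with 1 point per tested gene of each list, coloured by whether limma called it. Solid bars mark list medians and the dashed line the median of all genes; the lists of head and of posterior terminal markers stand farthest to the left, with medians of -3.26 and -4.83.

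A gene can differ from the whole rest and still be shared with the adjoining region, so the mid abdomen was also compared with the window before it (50 to 62.5% of the length) and after it (75 to 87.5%). Against the window before, 19 genes were higher (0.283%) and 9 lower (0.134%). Against the window after, 48 were higher (0.714%) and 59 lower (0.878%). Several gap genes were among them. *gt* exceeded the window before by 6.01 ± 0.49 (adjusted p = 9.2e-08) and *kni* the window after by 4.66 ± 0.65 (adjusted p = 2.3e-07). *hb* was at -5.93 against the window after (adjusted p = 5.9e-07). *Kr* was at -4.26 against the window before (adjusted p = 1.0e-04) and at 3.53 against that after (adjusted p = 0.0027). *kni* did not pass against the window before (0.97, adjusted p = 0.45), nor *gt* against that after (-0.17, adjusted p = 0.96).

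Only 5 genes passed above both neighbours (0.0744%) and 1 below both (0.0149%). Without the adjustment of p the counts were 49 and 24. With 1 embryo left out, 1 gene was above both without melXsim replicate 2 or simXmel replicate 1, 2 without melXsim replicate 1 or simXmel replicate 2, and 4 without melXsim replicate 3. The gene below both kept its call only without simXmel replicate 1. With no variance trend, or with one on the difference, 0 genes passed above both and 0 below both, so these 6 calls rest on the trend on the mean level. In simXmel replicate 1 the window before rests on a single slice with FPKM.

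Of the genes above both, *abd-A* and *CG31275* were described above. In the windows before and after, *abd-A* was at 0.48 to 3.63 and at 0.54 to 4.57 FPKM, and its differences were 1.76 (adjusted p = 0.0028) and 1.15 (adjusted p = 0.041). Those of *CG31275* were 2.30 (adjusted p = 0.0050) and 1.44 (adjusted p = 0.019). *rpr*, an activator of cell death that inhibits the IAP proteins, was at 13.1 to 33.7 FPKM in the mid abdomen, at 2.69 to 11.5 before it and at 4.07 to 15.7 after it. Its differences were 1.65 (adjusted p = 0.036) and 0.98 (adjusted p = 0.048). It lost its call at a pseudocount of 0.1 (adjusted p = 0.083 and 0.071), with the mean of log2 values (0.055 and 0.053) and, against the window after, with the FPKM of all slice files (0.057). *abd-A* lost its call against the window after at a pseudocount of 0.1 (adjusted p = 0.094).

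*Dtg*, named as a target of the BMP ligand Dpp, was higher than both neighbours in 5 of 5 embryos. It was at 335 to 561 FPKM in the mid abdomen, at 267 to 376 before it and at 200 to 386 after it, and exceeded its neighbours by 0.57 (adjusted p = 0.0041) and 0.71 (adjusted p = 2.4e-04). *Elba2*, a subunit of the ELBA insulator complex, exceeded them by 0.36 (adjusted p = 0.024) and 0.60 (adjusted p = 0.0015). Its level, 348 to 1152 FPKM, was nevertheless highest near the anterior end, in the second window of the embryo.

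The gene below both neighbours was *Mkp3* (chr3L:19059255-19079526), a phosphatase that inactivates MAP kinase. It was at 22.9, 51.3 and 34.7 FPKM in melXsim and at 54.2 and 31.1 FPKM in simXmel, while the window before held 54.9 to 91.5 and that after 72.9 to 112 FPKM. Its differences were -0.80 (adjusted p = 0.035) and -1.27 (adjusted p = 3.9e-05), lower in 5 of 5 embryos in both contrasts. Against the whole rest it fell by 0.95 ± 0.30 (adjusted p = 1.1e-04).

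**Figure D4:**
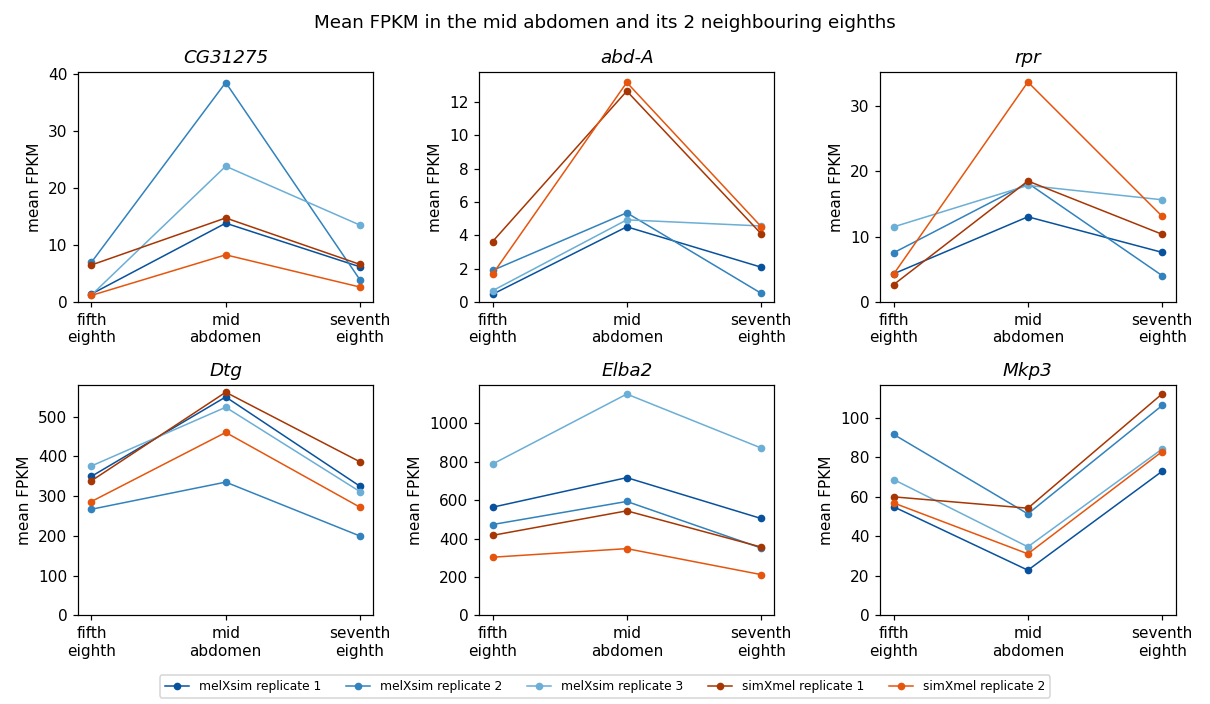
Mean FPKM in the window before, in the mid abdomen and in the window after, with 1 line per hybrid embryo, for the 5 genes called above both neighbours and for *Mkp3*, called below both. The peak or dip is present in every embryo, and for *abd-A* it ranges from 4.52 to 13.2 FPKM.

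The allele balance was compared in the same way over 3576 autosomal genes, with equal weight for both directions of the cross so that a maternal excess that shifts equally in both directions cancels. The ASE of 4 genes differed between the mid abdomen and the rest (0.112%), and 426 had an unadjusted p below 0.05. The adjusted p was 0.048 for each of the 4. None of them kept its call when any 1 of the 5 embryos was left out, nor with slices of 1 library batch per embryo. The median absolute difference over all genes was 0.020.

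*mfas* (chr3R:7810584-7819037), a cell adhesion protein of the fasciclin family, was shifted toward *D. simulans*. Its mean ASE in the mid abdomen was 0.15, 0.10 and 0.53 in melXsim and 0.43 and 0.63 in simXmel. The difference from the rest was 0.37 to 0.53 in the 5 embryos, on average 0.43 (SE 0.024). The shift was not a feature of that window alone, since the window before had a mean ASE of 0.24 in melXsim and 0.50 in simXmel, against 0.26 and 0.53 in the mid abdomen. The third window from the front had -0.46 and -0.36, and the last window -0.46 and -0.29. The level of *mfas* did not pass the test against the rest (12.5 against 10.2 FPKM, adjusted p = 0.38).

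The other 3 genes were shifted toward *D. melanogaster*. *Mkp3*, the gene with the local minimum in level, had a mean ASE of 0.020 in the mid abdomen and 0.27 in the rest, a difference of -0.25 (SE 0.016). In single slices it lay between -0.13 and 0.17. The windows before and after had means of 0.22 and 0.20 in melXsim and of 0.30 and 0.23 in simXmel, all above the mid abdomen, which had 0.022 and 0.018. Over the whole axis its level and ASE did not run together. The second window had the lowest level, at 30.7 FPKM, with an ASE of 0.25 and 0.38, and the last the highest, at 139 FPKM, with 0.21 and 0.07.

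*FER* (chr3R:5193325-5220268), a tyrosine kinase, had a mean ASE of 0.16 in the mid abdomen and 0.41 in the rest, a difference of -0.25 (SE 0.012). The 5 embryos differed by an SD of 0.020 although single slices of the region ran from -0.13 to 0.46, at 4.07 to 14.4 FPKM. Its ASE was highest at the ends of the embryo, at 0.71 and 0.76 in the first window. *CG14767* (chr2R:4605522-4611344) had -0.24 against -0.04, a difference of -0.20 (SE 0.013). Its ASE was below that of the front in every window behind 50% of the length, with -0.35 and -0.12 in the window after, against -0.38 and -0.11 in the mid abdomen. Both *FER* (-0.89) and *CG14767* (-0.59) were also called lower in level. The read depth behind the ASE of these 4 genes is not known.

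**Figure D5:**
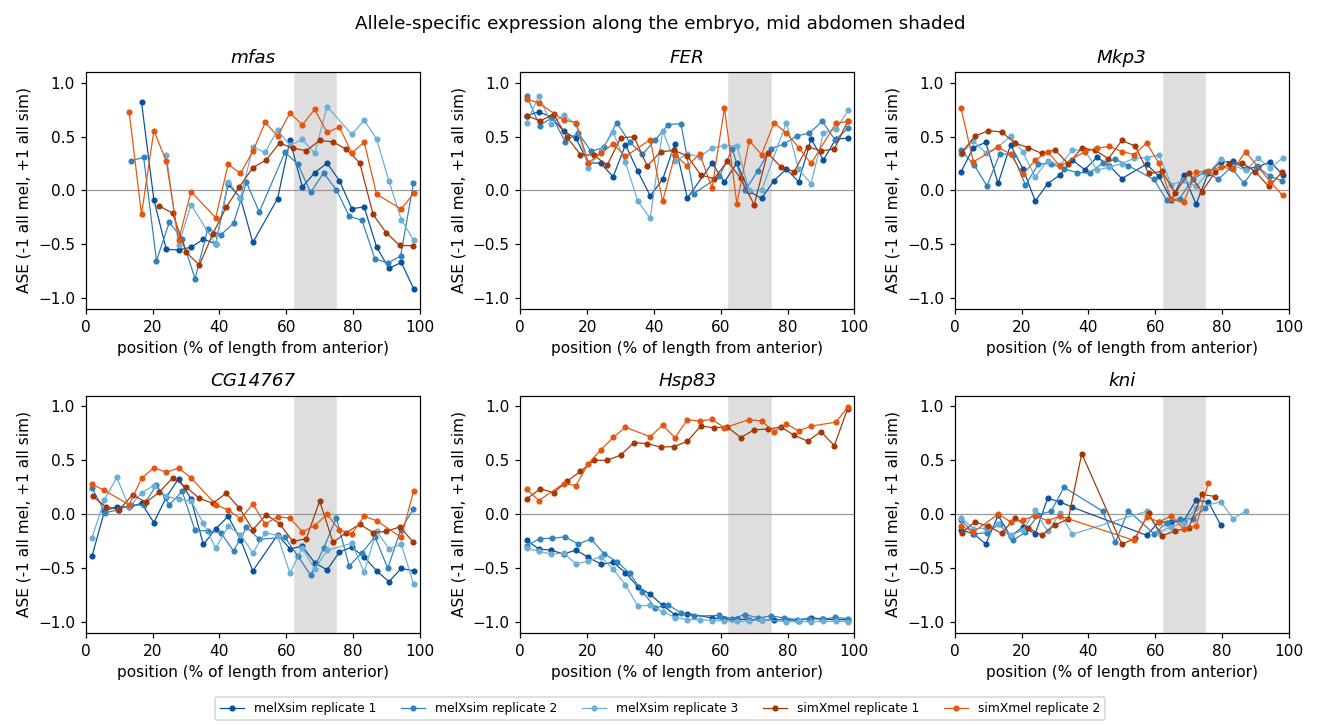
ASE by position for the 4 genes called, for *Hsp83* and for *kni*, with 1 line per hybrid embryo, 1 point per slice with a value, and the mid abdomen shaded; -1 is all *D. melanogaster* and +1 all *D. simulans*. *Mkp3* drops to between -0.13 and 0.17 inside the band, and *Hsp83* is separated by maternal species along the whole axis, from -0.30 and 0.19 in the first window to -0.98 and 0.86 in the last.

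No gene of the 12 lists passed the ASE test. For *kni*, the mean ASE was -0.04 in the mid abdomen and -0.07 in the rest (adjusted p = 0.72). *gt* is X-linked and was not tested. The smallest unadjusted p among the lists belonged to the cellularization gene *slam*, whose ASE was 0.22 in the mid abdomen and 0.08 in the rest (adjusted p = 0.12, higher in 5 of 5 embryos). *Ance* had 0.35 against 0.06 (adjusted p = 0.15, higher in 5 of 5).

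The maternal share of ASE, the excess of the mother's allele, differed from the rest for 0 of 3576 genes (0%) by limma. At an unadjusted p below 0.05 there were 417, and the smallest adjusted p was 0.14. The 4 genes of smallest p, none of which passed, were *Hsp83* (0.22), *cag* (0.14), *CG3700* (0.18) and *MRP* (0.10), all with a larger maternal share in the mid abdomen.

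The difference in FPKM between the mid abdomen and the rest was itself compared between the directions of the cross, and 2 of 6722 genes passed (0.0298%), with 451 at an unadjusted p below 0.05. *Hsp83* (chr3L:3192969-3197059), the Hsp90 chaperone, was at 532, 445 and 449 FPKM in the mid abdomen of the 3 melXsim embryos and at 43.2 and 19.2 FPKM in the 2 simXmel embryos. In the rest it was at 632 to 818 and at 333 and 181 FPKM. The difference from the rest was -0.57 in melXsim and -3.04 in simXmel, a difference between directions of -2.47 (SE 0.11, adjusted p = 5.3e-06). With the variance following the difference, 0 genes passed and the adjusted p of *Hsp83* was 0.47, while with no trend 2 passed, among them *Hsp83*.

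The parental embryos had the same order of levels, at 375 FPKM in the mid abdomen of melXmel and 41.0 FPKM in that of simXsim. The *D. melanogaster* allele gave 98.9%, 97.6% and 99.3% of *Hsp83* allele counts in the mid abdomen of the melXsim embryos and 83.9%, 81.0% and 85.5% in the rest. In simXmel it gave 12.6% and 4.09% in the mid abdomen against 29.5% and 27.6% in the rest. The father's allele thus took a smaller share in the mid abdomen than in the rest in all 5 embryos. The adjoining windows were alike, with a mean ASE of -0.96 and 0.83 in the window before and -0.98 and 0.77 in that after, against -0.97 and 0.82 in the mid abdomen, and with 305 and 357 against 298 FPKM over all hybrids. These counts are sums over SNPs and not independent reads, so they carry no interval.

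The second gene, *CG11905*, was at 0 to 0.14 FPKM in the mid abdomen of all hybrids. In the rest it was at 1.91 to 4.12 FPKM in melXsim and at 23.3 and 20.6 FPKM in simXmel, so the difference between directions (-2.4, adjusted p = 0.043) was one of the rest. The parental embryos had the other order there, at 10.2 FPKM in the rest of melXmel and 0.21 FPKM in that of simXsim. *CG11905* did not pass when any 1 embryo was left out, nor with no variance trend (adjusted p = 0.076). *Hsp22*, a small heat shock protein gene (adjusted p = 0.068), and *Cpr72Ea*, a cuticle protein gene (adjusted p = 0.083), did not pass.

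The genes most like *kni* over the 118 hybrid slices with FPKM were *knrl* (Pearson r = 0.90), *Cyp6d5* (0.72), *blot* (0.67), *CG42342* (0.65) and *CG16886* (0.64), on log2(FPKM + 1). The genes most like *gt* were *CG4452* (0.62), *bl* (0.61), *btd* (0.59), *CG3764* (0.59) and *CG13713* (0.58). Slices of an embryo share its RNA and its depth, and these values describe the slices only. None of these 10 genes was called higher in the mid abdomen, and 8 were called lower, against 1.73% and 4.85% of all genes tested. *kni* itself had its highest mean in the first window and *gt* in the third. Likeness over all slices therefore favours genes of the front, for which a lower call against the whole rest is likely. Against the rest behind the middle of the embryo, *knrl* was higher by 2.13 (limma, adjusted p = 1.4e-05). *btd* was at 0.23 there and did not pass (adjusted p = 0.53). The others called lower are not given here against that rest.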

How the data were processed

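Each slice of the frozen embryos was amplified with SMART-seq2 and sequenced. Per the labels, reads were processed with CASAVA 1.8.2, STAR 2.4.2a and Cufflinks 2.2.1. The FPKM values deposited by the authors are Cufflinks estimates, scaled by transcript length and library size. The ASE score between -1 and 1 was deposited by the authors, who mapped to a genome with SNPs masked and applied the WASP filter. The allele counts deposited by the authors are raw sums over SNPs, and 3005 genes could be used, those whose coordinates match the FPKM files. The protocol does not keep strand, so reads of overlapping genes cannot be told apart. Coordinates are those of release 5 in the FPKM files. In the joint tables, 27 columns hold no value for any gene and were left out, among them the FPKM of 2 mid abdomen slices.

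FPKM was averaged over the slices of each part of an embryo. limma 3.58.1 (R 4.3.3) was fitted to within-embryo differences of log2(mean FPKM + 1), which understate changes of low genes, with a variance trend on the mean log2 level (set after a first fit with limma's default trend, which on differences follows the difference itself) and Benjamini-Hochberg adjustment at 0.05. The pairing comes from parts of the same animal. The 6722 genes with a mean FPKM of at least 1 over hybrid slices were tested. A gene below 1 FPKM in the mid abdomen thus entered the test only through the rest. ASE was tested for 3576 autosomal genes with values in at least 2 mid abdomen and 5 other slices of every hybrid, with 1 coefficient per direction of the cross. X-linked genes were left out because sex was not given by the labels. The replicate numbers of the 2 directions do not pair embryos. The depth behind a single ASE value is not known for genes without usable counts. Library batches come from the supplement, where melXsim replicate 1 and simXmel replicate 1 are in the first batch (1 slice also in the second) and the others mix 2 later ones.

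Genes named are *kni*, *gt*, the 12 largest and 12 smallest called differences with 1 sign in all 5 embryos, up to 12 above and 6 below both neighbours, up to 6 per direction for ASE, 4 of smallest p for the maternal share and the direction of the cross, 5 most like each marker, and members of 12 lists in the account of their list. The members and lists were chosen with earlier results of these data known. The fits were also run on simulated differences, drawn independently for each gene with its own SD. Those draws lack the correlation between genes of an embryo, and their outcome is not given here, so they do not show how firm the calls are. Alternatives were other pseudocounts and filters, other averages and scalings, an unpaired fit, other choices of the rest, of slices and of embryos.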

Additional observations from a re-analysis of the deposited data

Results flagged for a closer look

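In 12 of 128 sets of 5 embryo differences, 1 embryo stood far from the other 4 (a gap over 0.71 of the whole range), where chance flags about 1 in 20 sets. No cause was tested for any of them.

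Among genes named by size, the log2 difference of *CG31275* was 4.08 in melXsim replicate 2 and 2.50 to 2.83 in the others, that of *CG3502* -6.74 in simXmel replicate 1 and -6.05 to -5.91 in the others, and that of *tll* -6.11 in melXsim replicate 2 and -7.26 to -7.02 in the others. In melXsim replicate 3, *prd* was at -0.96 and in the others at 0.58 to 0.96, *wg* at -1.44 and at -3.64 to -3.0, and *Doc2* at -2.12 and at -0.81 to -0.38. In simXmel replicate 2, *Bsg25A* was at 0.53 against -0.03 to 0.07, *Tl* at -0.82 against -0.16 to 0.09, *osk* at -1.19 against -0.32 to -0.03, and *sog* at -0.032 against 0.24 to 0.34. *tin* was at -1.32 in melXsim replicate 1 and at -0.40 to -0.30 in the others. The ASE difference of *mfas* was 0.53 in simXmel replicate 1 and 0.37 to 0.41 in the others.

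The differences of *Hsp83* and *CG11905* between the mid abdomen and the rest differed between the directions of the cross, by -2.47 and -2.4 in simXmel relative to melXsim on the log2 scale.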

How the results depend on the processing

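The counts of 116 genes higher and 326 lower became 55 and 196 with no filter on low values, and 74 to 128 and 196 to 298 when 1 embryo was left out, lowest without melXsim replicate 2. In the unpaired fit (no replicate block) they were 9 and 77, with 0 genes above both neighbours, 0 below both and 0 in ASE. With the mean of log2 values over slices, 187 genes were higher and 226 lower, so that 45.3% of calls were upward against 26.2% in the fit reported. With that mean *kni* was at 3.04 and *gt* at 0.44, and with the rest limited to slices behind 50% of the length at 2.64 and 1.16. For the 24 genes named by size, 462 of the values under alternatives kept direction and call, and 12 kept the direction only. The variance trend on the mean log2 level was set after a first fit with limma's default, in which the trend follows the mean difference. With that default 98 genes were higher and 206 lower, with 0 above both neighbours, 0 below both and 0 between directions of the cross. With no trend the counts were 83, 286, 0, 0 and 2.

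The 5 genes above both neighbours were 3 at a pseudocount of 0.1, 0 with no filter and 1 to 4 without 1 embryo. The gene below both was lost at a pseudocount of 0.1 (0) and with no filter (0), ranged from 0 to 1 without 1 embryo, and became 2 with the FPKM of all slice files, which was chosen after seeing the data. The 4 genes in ASE were 0 in every fit without 1 embryo (0 to 0), 0 with at least 1 mid abdomen slice, 0 with slices of 1 library batch per embryo (also chosen after seeing the data) and 8 with equal weight per embryo. With summed allele counts, 1342 genes could be tested and 0 passed, but 0 of the 4 genes have usable counts. The 2 genes between directions of the cross were 1 at a pseudocount of 0.1, with no filter and with the mean of log2 values, 5 at a pseudocount of 5 and with slices rescaled to the same sum, and 1 to 3 without 1 embryo. The maternal share gave 0 in every alternative. With 5 embryos and 2 to 4 mid abdomen slices with FPKM in each, the spread between embryos limits every test.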

Other observations

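Within the region, the ASE of *kni* had an order from front to back in most embryos. It was -0.07, -0.06 and 0.13 in the 3 slices of melXsim replicate 1, and -0.08, -0.05, -0.04 and 0.05 in the 4 slices of replicate 2. It was -0.11, -0.08 and 0.06 in replicate 3 and -0.15, -0.13 and 0.18 in simXmel replicate 1. In simXmel replicate 2 it was -0.02, -0.14 and -0.11, without that order. The last slice, where *kni* was lowest, was thus the one most shifted toward *D. simulans* in 4 of 5 embryos. This pattern was seen in the values and not tested.

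The FPKM table leaves out 2 of the 16 slices, which have values in their own files. The last slice of melXsim replicate 1 held 50.3 FPKM of *kni* and 271 FPKM of *gt* there, and the first slice of simXmel replicate 1 held 207 and 21.1 FPKM. *abd-A* was at 7.13 and 10.9 FPKM in these slices and *hb* at 1.67 and 0.08 FPKM.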
